A study of Mus musculus with 4 samples.

Results

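The mitochondrial genome encodes 7 subunits of respiratory complex I, and 4 of them, mt-Nd1, mt-Nd2, mt-Nd4 and mt-Nd5, are described here as RNAs of the plus strand. These 4 genes, of 37 annotated mitochondrial genes, were taken with every read position between their start and about 10 nt past their annotated end. mt-Nd4 was followed only from position 11166, because the mitochondrial stretch before it held almost no reads. The upstream part of mt-Nd4 that was left out, from 10167 to 11165, held 141 CU5T45 and 189 oligo(dT)10-25 reads, all at or after position 11047.

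Polyadenylated 3′ ends were located by 3'READS, which captures RNA fragments that carry a poly(A) tail and sequences them to find the last base before it. The starting RNA was an Agilent mix of 11 mouse cell lines that the labels do not name, and it was captured either with the CU5T45 oligo, which carries 5 U and 45 T and was followed by stringent washing and RNase H release, or with oligo(dT)10-25 beads, the shorter T stretches of ordinary poly(A) selection. There was 1 library for each. In a separate experiment CstF64, the RNA-binding subunit of the nuclear cleavage stimulation factor, was crosslinked to RNA in the myoblast line C2C12 during proliferation, and the bound RNA was sequenced (CLIP-seq) in 2 replicates.

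Complex I is the NADH dehydrogenase of the inner mitochondrial membrane, where it passes electrons from NADH to ubiquinone and pumps protons. Its mitochondrially encoded subunits, which include those of these 4 genes, form the membrane arm together with subunits made from nuclear genes. Mitochondrial mRNAs are cut out of long transcripts of a whole strand, often at the tRNAs that lie between them, and are then given short poly(A) tails by a mitochondrial polymerase. In several of them the tail supplies the missing A of an incomplete stop codon.

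The CU5T45 library held 6738355 reads and the oligo(dT)10-25 library 3482826. Mitochondrial positions took 2.74% and 5.57% of these reads, a ratio of shares of 0.493 (95% counting interval 0.490 to 0.496) for CU5T45 over oligo(dT)10-25. With 1 library for each oligo there is no replicate error, no test was possible, and the oligo and the library cannot be told apart. All intervals therefore cover counting error only, and reads copied by PCR make them too narrow. Both oligos captured RNA of the same mix. For the level of an RNA in that pooled mix, fewer cells of a kind and less RNA per cell cannot be told apart.

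Positions are printed as deposited. On the mitochondrial genome they proved to count from 0. The base 2 nt after the deposited position on the plus strand was A at 0 of 4278 positions, and the base at the deposited position on the minus strand was T at 0 of 1116. The last base that matches the genome is thus 1 nt above the deposited number, and A that could come from either the genome or the tail is counted as genome. A run of genomic A at a 3′ end therefore leaves the true end open over the length of that run.

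The ends of mt-Nd1, mt-Nd2 and mt-Nd4 and the annotated end of mt-Nd5 are shown because they differ in how the mRNA stops and in whether any RNA ended there. The sequences are of the plus strand of the mitochondrial genome (GRCm38), read from GENCODE transcripts, 5′ to 3′. Capitals mark the genomic A that cannot be told from the tail in mt-Nd1 and mt-Nd2, the single base U of the incomplete stop codon (written T) in mt-Nd4, and the stop codon in mt-Nd5.
mt-Nd1, chrM:3686-3715: gggagtaccaccatacatatagAAAtatgt
mt-Nd2, chrM:4930-4958: agccccccaactaattacctagAAgttta
mt-Nd4, chrM:11523-11544: ctaattacaggcctgacaataT
mt-Nd5, chrM:13544-13571: atactcaattaatctcgagTAAtctcga

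Nearly every read at the end of mt-Nd1, mt-Nd2 and mt-Nd4 fell on 1 nucleotide, and this nucleotide was the same with both oligos. mt-Nd1 (ENSMUSG00000064341.1, 2751 to 3707), which encodes the subunit next to the ubiquinone site, ended at position 3709 in 48891 of the 49073 CU5T45 reads within 10 nt of its annotated end (99.6%), and in 43618 of 43705 oligo(dT)10-25 reads (99.8%). mt-Nd2 (ENSMUSG00000064345.1, 3914 to 4951), a subunit of the proton-pumping membrane arm, ended at 4952 in 4177 of 4224 CU5T45 reads (98.9%) and in 2839 of 2880 oligo(dT)10-25 reads (98.6%). mt-Nd4 (ENSMUSG00000064363.1, 10167 to 11544), another subunit of that arm, ended at 11543 in 12360 of 12454 CU5T45 reads (99.2%) and in 9710 of 9775 oligo(dT)10-25 reads (99.3%).

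Counted from 1, the last genome-matched base was 3710 in mt-Nd1, 3 nt past the annotated end and at the close of a run of 3 A. It was 4953 in mt-Nd2, 2 nt past the annotated end and at the close of a run of 2 A. In mt-Nd4 it was 11544, the annotated last base itself. With the A runs set aside, each of these most used ends falls on the last annotated base. The annotation closes mt-Nd1 and mt-Nd2 with a complete UAG codon, whose last 2 bases overlap the start of the tRNA genes mt-Ti and mt-Tw, and leaves mt-Nd4 with 1 base, U, after 459 whole codons. The deposited files hold positions and not the letters of the reads, so whether reads of mt-Nd1 and mt-Nd2 carried the G of UAG was not tested.

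**Figure D1:**
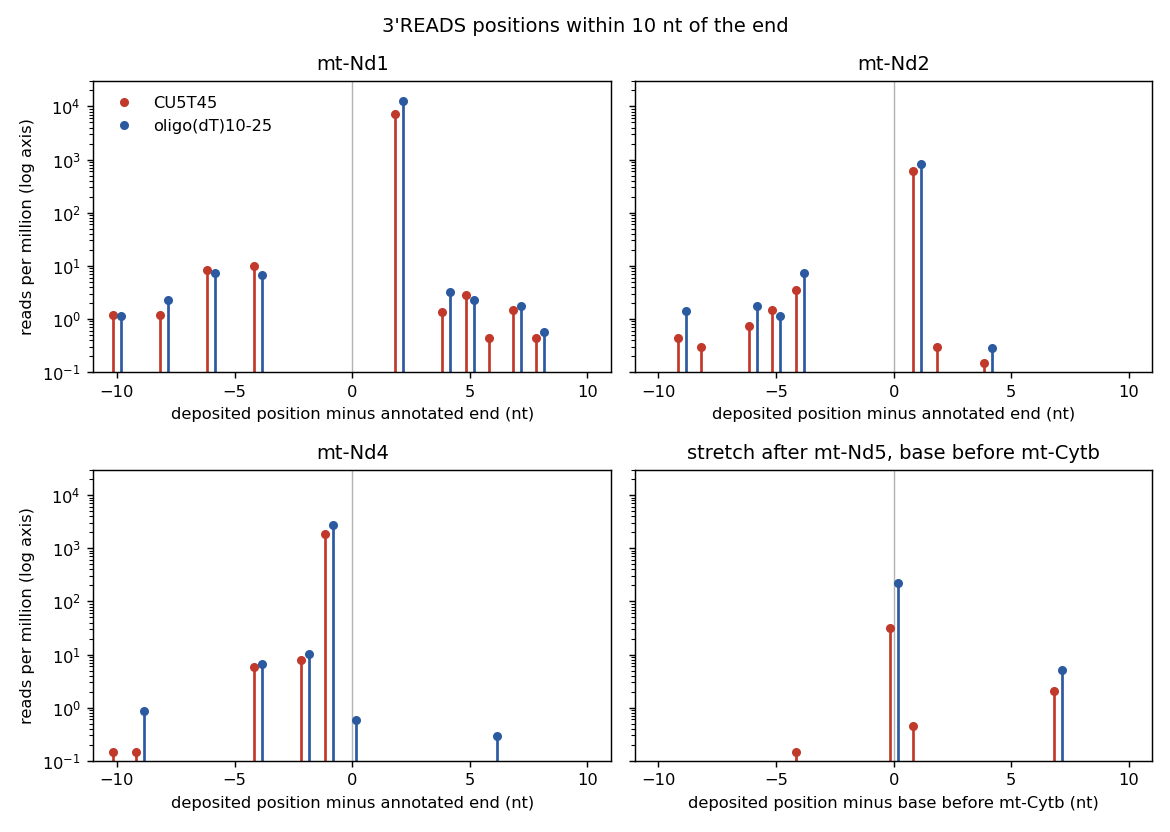
Reads per 1000000 reads of the library (log axis) at each deposited position within 10 nt of the annotated end of mt-Nd1, mt-Nd2 and mt-Nd4, and of the base before mt-Cytb, in the CU5T45 (red) and oligo(dT)10-25 (blue) libraries. Positions without reads are not drawn. In each panel both libraries share 1 most used position, and in the last panel the CU5T45 point lies furthest below the oligo(dT)10-25 point.

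mt-Nd5 (ENSMUSG00000064367.1, 11742 to 13565), which encodes a large subunit at the far end of the membrane arm, gave almost no RNA that ended at its annotated end. Within 10 nt of it there were 3 CU5T45 and 2 oligo(dT)10-25 reads, beside 5035 and 3042 reads inside the gene. On the plus strand the next annotated gene is mt-Cytb (cytochrome b of complex III), which starts at 14145, and between them the genes mt-Nd6 and mt-Te lie on the other strand. A sharp end was found just before mt-Cytb, at position 14144, with 217 CU5T45 and 769 oligo(dT)10-25 reads. These were 92.3% and 97.7% of the reads within 10 nt of the base before mt-Cytb. The last genome-matched base there is the A at 14145. Whether the RNA that ended there ran through from mt-Nd5 was not tested, since the positions do not show where a transcript began.

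Levels at the ends stood in the same order with both oligos, mt-Nd1, then mt-Nd4, then mt-Nd2, then the end before mt-Cytb. On the CPM scale (reads at the end times 1000000, divided by all reads of the library), mt-Nd1 reached 7283 CPM with CU5T45 and 12549 CPM with oligo(dT)10-25. mt-Nd4 reached 1848 CPM with CU5T45 and 2807 CPM with oligo(dT)10-25, and mt-Nd2 627 CPM and 827 CPM. The mt-Nd1 end alone held 29.7% of the mitochondrial plus-strand reads with CU5T45 and 24.1% with oligo(dT)10-25, while the mt-Cytb end held 16.5% and 29.9%. The end before mt-Cytb reached 34.9 CPM with CU5T45 and 226 CPM with oligo(dT)10-25.

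All 3 ends with 30 or more reads, those of mt-Nd1, mt-Nd2 and mt-Nd4, had a lower share of CU5T45 reads, with intervals below 1, as did 23.5% of all 16684 clusters of 30 or more reads in the genome. None of the 3 was higher, against 27.5% of the clusters, none was 2-fold lower, against 14.1%, and none 2-fold higher, against 11.1%. The comparison is not at equal depth. The smallest of the 3 ends, that of mt-Nd2, held 4224 and 2880 reads, while clusters enter from 30, where intervals are wider. The ends are also fixed windows, and the clusters are chained positions. The ratio of shares, CU5T45 over oligo(dT)10-25, was 0.580 (0.573 to 0.588) at the end of mt-Nd1, 0.659 (0.641 to 0.676) at that of mt-Nd4 and 0.758 (0.723 to 0.795) at that of mt-Nd2. Relative to all mitochondrial reads the direction turned: the ratios became 1.18, 1.34 and 1.54. These mRNAs therefore made up more of the mitochondrial reads with CU5T45 and less of the whole library. The median ratio of the clusters was 1.08 (0.11 on the log2 scale), and dividing by it lowered the ratios to 0.537, 0.609 and 0.701.

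The 3 ends differed from each other by more than counting error. The ratio at the mt-Nd2 end was 1.31 times that at the mt-Nd1 end (1.24 to 1.37) and 1.15 times that at the mt-Nd4 end (1.09 to 1.22), and the ratio at the mt-Nd4 end was 1.13 times that at the mt-Nd1 end (1.10 to 1.17). Library depth cancels in these quotients. The end before mt-Cytb stood apart from them, with a ratio of 0.154 (0.133 to 0.179), or 6.48-fold lower in CU5T45. The ratio at the mt-Nd1 end was 3.76 times as large (3.24 to 4.37), and that at the mt-Nd2 end 4.91 times (4.21 to 5.75).

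The ends of mt-Nd1, mt-Nd2 and mt-Nd4 had higher ratios than 3 other mitochondrial ends, those of mt-Cytb and the ribosomal RNAs. The ratio was 2.23 times (mt-Nd1, 2.19 to 2.27) to 2.91 times (mt-Nd2, 2.77 to 3.06) that at the end of mt-Cytb. It was 2.61 to 3.41 times that at the end of mt-Rnr1, the small ribosomal RNA, and 2.73 to 3.56 times that at the end of mt-Rnr2, the large one. The end before mt-Cytb lay on the other side: its ratio was 0.593 (0.510 to 0.687) of that at the end of mt-Cytb and 0.725 (0.619 to 0.848) of that at the end of mt-Rnr2. All reads of the 4 genes together had a ratio of 0.631 (0.625 to 0.638), and the rest of the mitochondrial plus strand 0.376 (0.373 to 0.379). The 4 genes held 50.0% of the plus-strand mitochondrial reads with CU5T45 and 37.4% with oligo(dT)10-25.

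**Figure D2:**
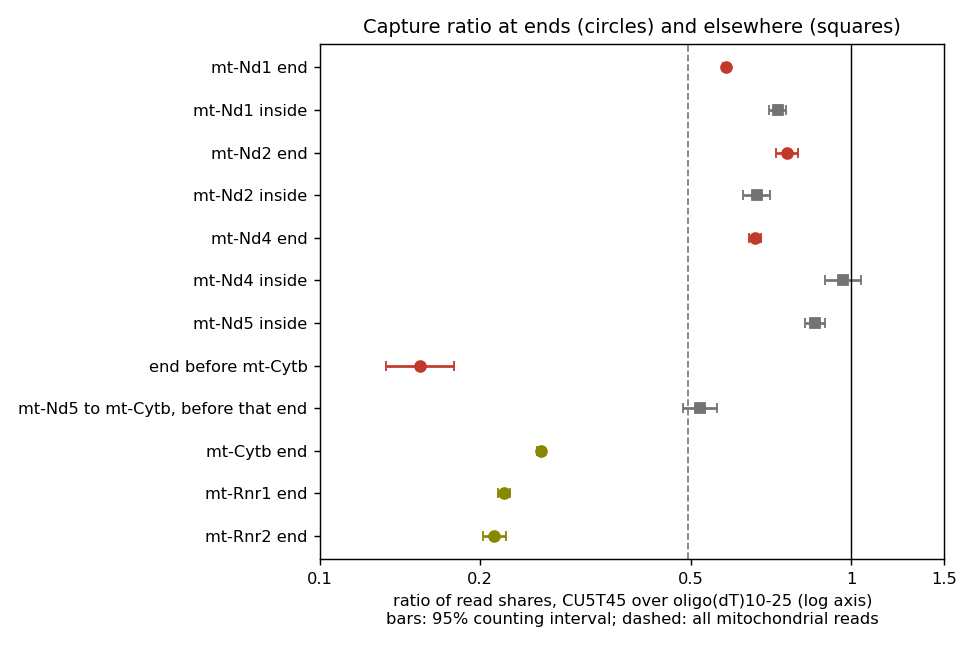
Ratio of read shares, CU5T45 over oligo(dT)10-25 (log axis), at ends (circles) and inside genes or stretches (squares), with 95% counting intervals. The solid line marks 1 and the dashed line the ratio of all mitochondrial reads, 0.493. The ends of mt-Nd1, mt-Nd2 and mt-Nd4 lie between 0.580 and 0.758, to the right of the dashed line, and the end before mt-Cytb lies at 0.154.

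The other complex I genes of the mitochondrial genome gave few reads. mt-Nd3, a small subunit of the membrane arm, had 9 CU5T45 and 2 oligo(dT)10-25 reads, and mt-Nd4l, another small one, had 0 and 0. Both lie in the nearly empty stretch before the measured part of mt-Nd4, so their levels were not measured here. mt-Nd6, the only complex I gene of the minus strand, had 114 reads with CU5T45 and 95 with oligo(dT)10-25, for a ratio of 0.620 (0.468 to 0.823).

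Polyadenylated fragments also ended inside all 4 genes, spread over many positions. The part of a gene's reads that ended within 10 nt of its annotated end was large in mt-Nd1 and mt-Nd4, smaller in mt-Nd2 and nearly nil in mt-Nd5. In mt-Nd1 it was 86.9% with CU5T45 and 89.3% with oligo(dT)10-25. In mt-Nd4, whose upstream part is not counted, it was 87.2% with CU5T45 and 90.9% with oligo(dT)10-25. In mt-Nd2 it was 60.7% with CU5T45 and 57.5% with oligo(dT)10-25.

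Between the 2 libraries this balance differed in opposite directions in different genes. The odds of an end read over an inside read in CU5T45 were 0.798 (0.768 to 0.828) times those in oligo(dT)10-25 for mt-Nd1 and 0.682 (0.627 to 0.740) times for mt-Nd4. For mt-Nd2 they were 1.14 times as high (1.06 to 1.23). For mt-Nd5, with 5 end reads in all, the interval of 0.104 to 10.9 allows either direction.

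Per length, inside reads were most frequent in mt-Nd1. It had 1159 CPM per kb with CU5T45 and 1593 CPM per kb with oligo(dT)10-25, while mt-Nd4 had 739 and 765. The mt-Nd4 values cover only the 368 nt measured and not the whole gene. The first of 5 parts of that stretch held 51.2% of its CU5T45 and 41.5% of its oligo(dT)10-25 reads. mt-Nd5 had 412 CPM per kb with CU5T45 and 482 with oligo(dT)10-25, and mt-Nd2 395 and 595. The order of mt-Nd2 and mt-Nd5 thus depended on the library.

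Inside the genes the ratio of shares was 0.664 (0.627 to 0.703) in mt-Nd2, 0.728 (0.702 to 0.754) in mt-Nd1, 0.855 (0.818 to 0.895) in mt-Nd5 and 0.966 (0.894 to 1.05) in mt-Nd4. The first 3 intervals lie below 1, and that of mt-Nd4 includes 1. With TMM scaling or the median ratio the mt-Nd4 interval also lies below 1, at 0.897 (0.829 to 0.970) and 0.894 (0.827 to 0.967). Relative to all mitochondrial reads every inside ratio lies above 1, at 1.35 in mt-Nd2, 1.48 in mt-Nd1, 1.74 in mt-Nd5 and 1.96 in mt-Nd4. mt-Nd4 had the highest inside ratio of the 4 genes. These scales change only the library totals, so the order of the genes is the same on each of them by construction. The quotient of the mt-Nd2 and mt-Nd5 inside ratios was 0.776 (0.721 to 0.835).

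Many inside positions had reads in both libraries. With CU5T45 thinned to the total depth of the other library, mt-Nd1 had 409 CU5T45 and 455 oligo(dT)10-25 positions in 946 nt, so some would coincide even if placed at random, and no overlap over the genome was computed. At this depth, 90.2% of the CU5T45 positions inside mt-Nd1 were also oligo(dT)10-25 positions, and these made up 81.1% of the oligo(dT)10-25 positions there. For mt-Nd5, the gene with the lowest shares, they were 71.5% and 61.7%. Its positions were sparser, with 432 thinned CU5T45 and 501 oligo(dT)10-25 positions in 1813 nt, so fewer would coincide at random. The shares therefore do not rank the genes by overlap beyond random placement, which was not tested. In mt-Nd5, shared positions held 93.2% of the thinned CU5T45 reads, against 87.9% for oligo(dT)10-25.

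The reads were unevenly spread along each gene. In mt-Nd5 the second of 5 equal parts of the gene held 62.7% of the inside CU5T45 reads and 51.2% of the inside oligo(dT)10-25 reads. In mt-Nd2 the middle part held 45.3% and 48.2%. In mt-Nd1 the second part held 4.78% of the inside CU5T45 reads, against 9.85% for oligo(dT)10-25, with a ratio of shares of 0.353, and the middle part held 33.8% and 26.6%. The first of 5 parts of the measured stretch of mt-Nd4 held 51.2% and 41.5%, and its ratio of 1.19 (1.06 to 1.34) lay above 1. Library shares thus differed along the length of a gene and not only between genes.

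**Figure D3:**
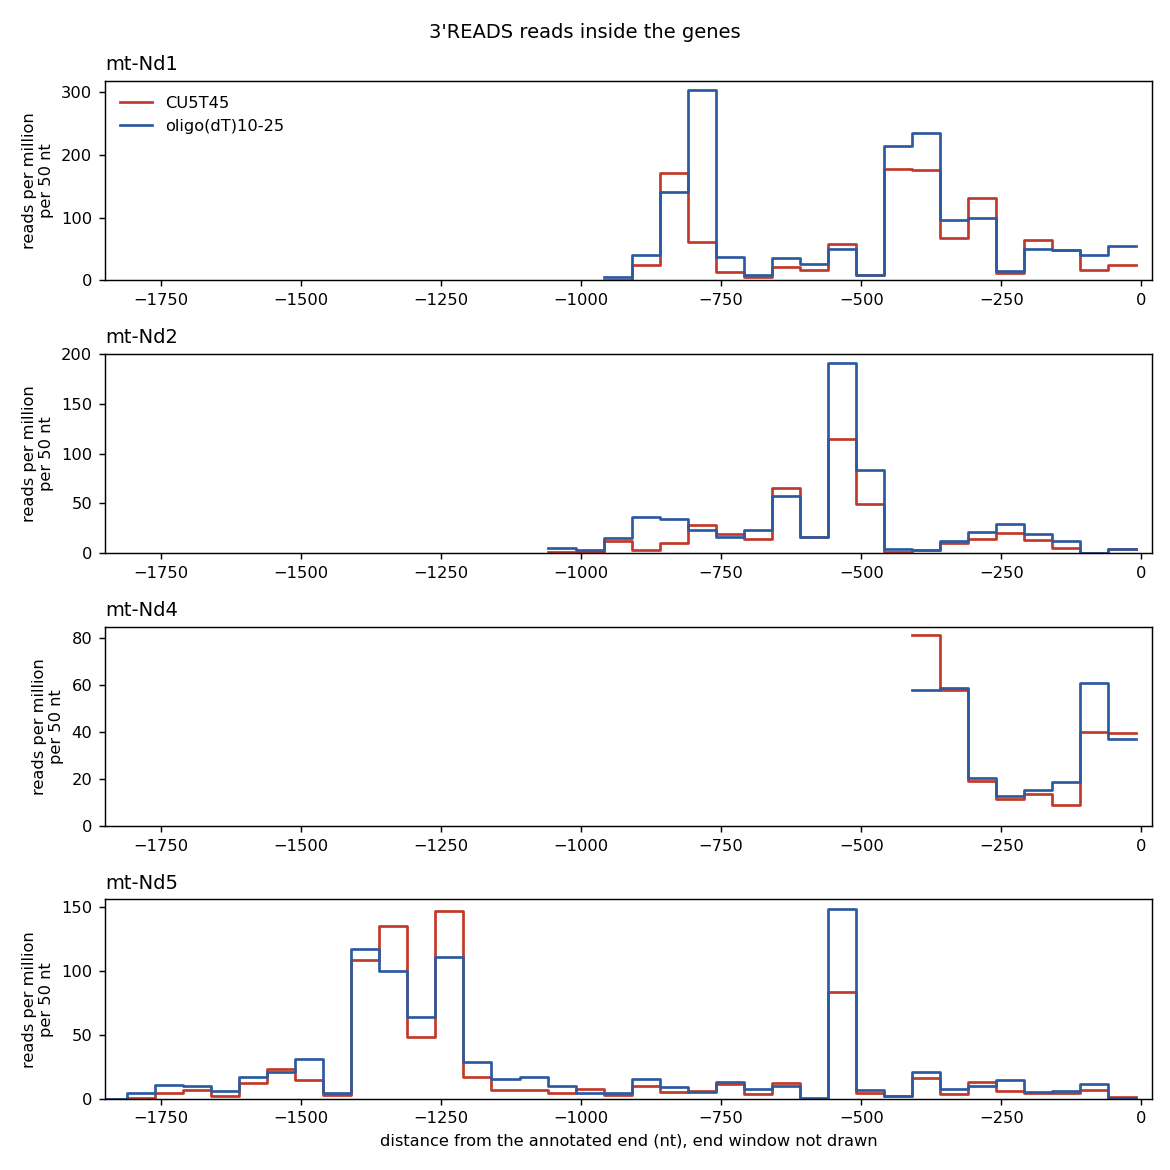
Inside reads, per 1000000 reads of the library, summed in bins of 50 nt, by distance from the annotated end, for CU5T45 (red) and oligo(dT)10-25 (blue). The vertical axes differ between genes, the first bin of each gene is only partly covered, and mt-Nd4 begins where its measured part begins. Reads stand in a few bins in each gene, and in mt-Nd1 neighbouring bins differ in which library is higher.

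Inside positions with a high share of reads, averaged over both libraries, are given with 19 bases before and 10 after the last genome-matched base. That base is in capitals, and the letters show the genome around the mapped end, not the letters of the reads. Where that base is A, it and any A just before it could also come from the tail. An average can rest on 1 library, as at 2934, where 36 of the reads were CU5T45 and 210 oligo(dT)10-25. Coordinates are those of the printed stretch on the plus strand (GRCm38).
mt-Nd1 position 3330, chrM:3312-3341: tcaaccctagcagaaacaaAccgggccccc
mt-Nd1 position 2934, chrM:2916-2945: tttataaaagaaccaatacGccctttaaca
mt-Nd1 position 2890, chrM:2872-2901: gtccatacggcattttacaAccatttgcag
mt-Nd2 position 4424, chrM:4406-4435: ggggcatgaggaggacttaAccaaacacaa
mt-Nd4 position 11213, chrM:11195-11224: catggcccgaggacttcaaAtggtcttccc
mt-Nd5 position 12191, chrM:12173-12202: agaaggggtgggaattataTctttcctact

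Of these 6 positions, the one in mt-Nd2 has 6 A among the next 10 bases, and the others have fewer. Position 4424 in mt-Nd2 was the largest, with 584 CU5T45 and 488 oligo(dT)10-25 reads, or 21.3% and 22.9% of the inside reads of that gene. Its ratio was 0.619 (0.548 to 0.699). Position 12191 in mt-Nd5 had 495 CU5T45 reads and 232 with oligo(dT)10-25. Its ratio of 1.10 (0.942 to 1.29) has an interval that includes 1. Position 3330, which has the highest mean share inside mt-Nd1, had 177 reads with CU5T45 and 236 with oligo(dT)10-25, and its ratio was 0.388 (0.317 to 0.473). With CU5T45 alone, position 3314 of mt-Nd1 had more, with 212 reads, against 98 with oligo(dT)10-25 (ratio 1.12, 0.876 to 1.44). It was named after its values were seen.

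Other inside positions of mt-Nd5 differed in direction. Position 12347 had 263 reads with CU5T45 and 88 with oligo(dT)10-25, for a ratio of 1.54 (1.21 to 1.99), and position 13023 had 237 and 206, a ratio of 0.595 (0.491 to 0.720). In mt-Nd4, position 11178 had 141 reads with CU5T45 and 43 with oligo(dT)10-25, for a ratio of 1.69 (1.20 to 2.44). The ratio at position 11213 of mt-Nd4 was 0.961 (0.725 to 1.28), from 145 and 78 reads.

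In mt-Nd1 positions less than 50 nt apart differed strongly. At position 2934 there were 36 CU5T45 and 210 oligo(dT)10-25 reads, 11.3-fold lower in CU5T45 (7.90 to 16.6), while position 2890 had 197 and 107 reads and a ratio of 0.952 (0.748 to 1.22). The lowest and the highest ratio of the gene lay near these, at 2932 and 2885. These were singled out by their values and are a description. Within 10 nt of 2932 the sum was 106 reads with CU5T45 and 628 with oligo(dT)10-25, for a ratio of 0.0872 (0.0703 to 0.107). Within 10 nt of 2885 it was 832 and 295 reads, a ratio of 1.46 (1.27 to 1.67). mt-Nd2 had a like pocket within 10 nt of 4088, with 29 reads for CU5T45 and 129 for oligo(dT)10-25, and a ratio of 0.116 (0.0749 to 0.175).

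Over the 4 genes, 217 inside positions had 30 or more reads. Of these, 49 had a lower CU5T45 share with an interval below 1 (22.6%), near the 20.7% of the 24272 such positions in the whole genome. A higher CU5T45 share with an interval above 1 was found at 18 (8.29%), against 27.8% in the genome. At least 2-fold lower were 39 (18.0%), against 13.4%, and at least 2-fold higher 6 (2.76%), against 13.9%. mt-Nd1 held 116 of the 217 positions, and neighbouring positions share RNA ends, so these counts are not over independent sites.

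**Figure D4:**
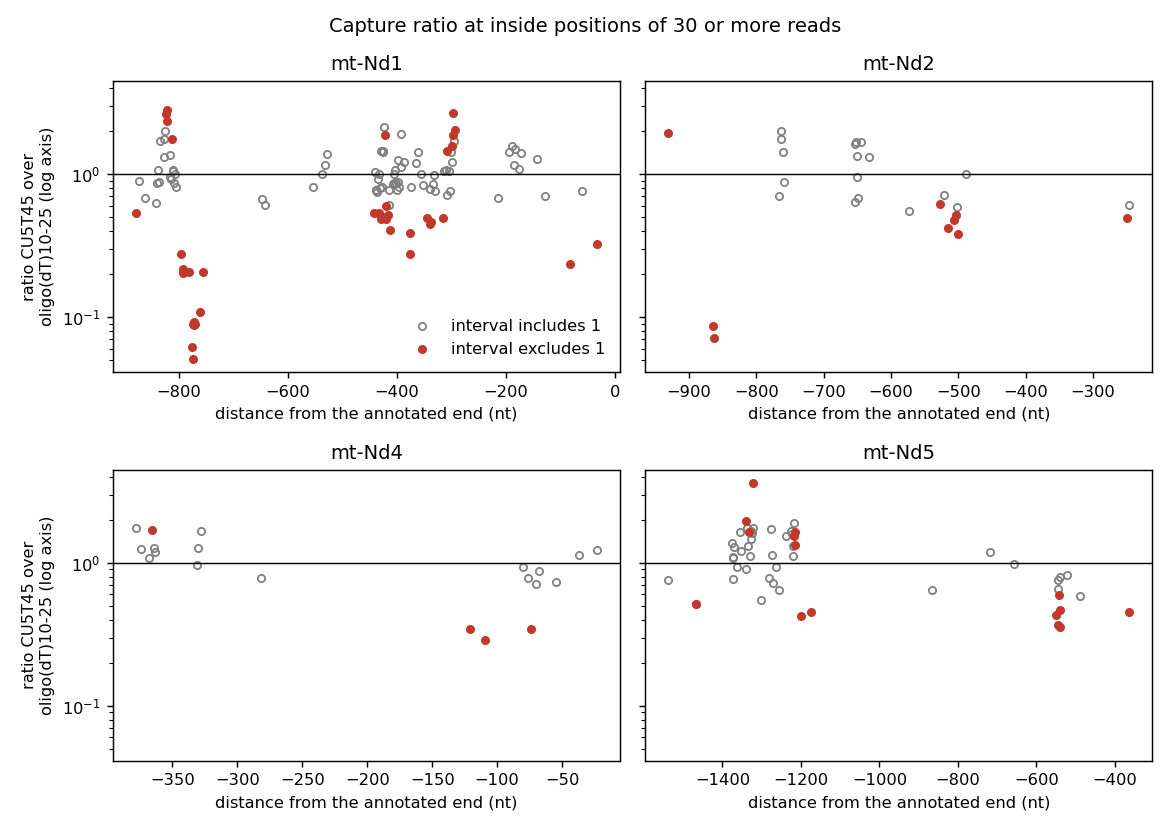
Ratio of read shares, CU5T45 over oligo(dT)10-25 (log axis), at each inside position of 30 or more reads, by distance from the annotated end. Filled points have 95% counting intervals that exclude 1. In mt-Nd1 points near 2.80 and near 0.0510 stand within 50 nt of each other.

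The stretch between mt-Nd5 and mt-Cytb, opposite mt-Nd6 and mt-Te, held reads besides its sharp end. From the end of the mt-Nd5 interval to 10 nt before the base that precedes mt-Cytb there were 1440 reads with CU5T45 and 1434 with oligo(dT)10-25, for a ratio of 0.519 (0.482 to 0.559). Of its 26 positions with 30 or more reads, 17 had intervals below 1 and 0 above 1, against 20.7% and 27.8% of such positions in the genome. The most used was 13749, with 112 reads for CU5T45 and 133 for oligo(dT)10-25, and a ratio of 0.435 (0.335 to 0.564). Inside mt-Nd5 the ratio was 0.855, as given above.

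CstF64 acts in cleavage of nuclear pre-mRNA, and the CLIP libraries also held mitochondrial alignments. The mitochondrial genome took 0.393% of the 1101047 alignments of replicate 1 and 0.356% of the 1352122 of replicate 2. Within the 4 genes, 744 of the 922 plus-strand alignments of replicate 1 were identical to 1 in replicate 2. Over 34 bins of 50 nt, chi-square divided by its degrees of freedom was 0.172. The spread between replicates was therefore below sampling noise, and both count as 1 sample. No input or control precipitation was analysed here, and CLIP values were not divided by the RNA level in C2C12 cells, which was not analysed here.

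The 4 genes held 22.4% of the plus-strand mitochondrial alignments in replicate 1 and 22.9% in replicate 2. They cover 4237 nt, and these shares are not corrected for length, so they do not show enrichment. Density was highest in mt-Nd1, with 340 alignments per kb and per 1000000 alignments of the library in replicate 1 and 319 in replicate 2, and lowest in mt-Nd2, with 119 and 108. mt-Nd4 had 210 and 212, and mt-Nd5 165 and 145. For comparison, mt-Cytb had 148 and 153, mt-Co1 175 and 168, mt-Rnr1 832 and 760, and mt-Rnr2 993 and 848. mt-Nd1 and mt-Nd4 thus had higher values than mt-Cytb and mt-Co1, and mt-Nd2 had lower ones than both. mt-Nd5 had lower values than mt-Co1, and all 4 genes had lower ones than mt-Rnr1 and mt-Rnr2. As both replicates count as 1 sample, these differences were not tested.

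No alignment was centred within 10 nt of any of the 4 annotated ends in either replicate, and none spanned such an end by 5 nt on each side. The median alignment reached 35 nt from its first to its last coordinate in replicate 1 and 36 nt in replicate 2. RNA that stops at an end can give only midpoints upstream of it and cannot span it. For mt-Nd1, mt-Nd2 and mt-Nd4 the absence therefore does not show whether CstF64 avoided the ends. The last midpoint before the end lay 51 nt upstream in mt-Nd1 in both replicates, 21 nt upstream in mt-Nd2 in both, and 59 and 46 nt upstream in mt-Nd4. In mt-Nd5 it lay 127 and 152 nt upstream. Of the 37 bins of mt-Nd5, 9 and 8 held no plus-strand alignment, so an empty bin is not particular to its end. The alignments stood inside the genes in narrow groups. The bin from 3251 to 3300 of mt-Nd1 held 97 and 115 alignments in replicates 1 and 2, or 26.8% and 27.6% of those in the gene. In mt-Nd5 the bin from 11942 to 11991 held 77 and 77, or 23.1% and 21.4%.

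The minus strand served as background. It held 5 and 7 alignments opposite mt-Nd1 and 3 and 5 opposite mt-Nd2, at most 3.16% of the alignments of both strands. Opposite mt-Nd4 it held 29 and 36 (24.4% and 24.3%) and opposite mt-Nd5 98 and 117 (22.7% and 24.6%). The minus-strand alignments were also grouped: the bin from 12092 to 12141 of mt-Nd5 held 22 and 24 of them and 0 and 0 on the plus strand. The plus strand thus stood far above the opposite strand in mt-Nd1 and mt-Nd2 and less so in mt-Nd4 and mt-Nd5. Whether this contrast follows the amount of RNA from each strand was not tested.

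**Figure D5:**
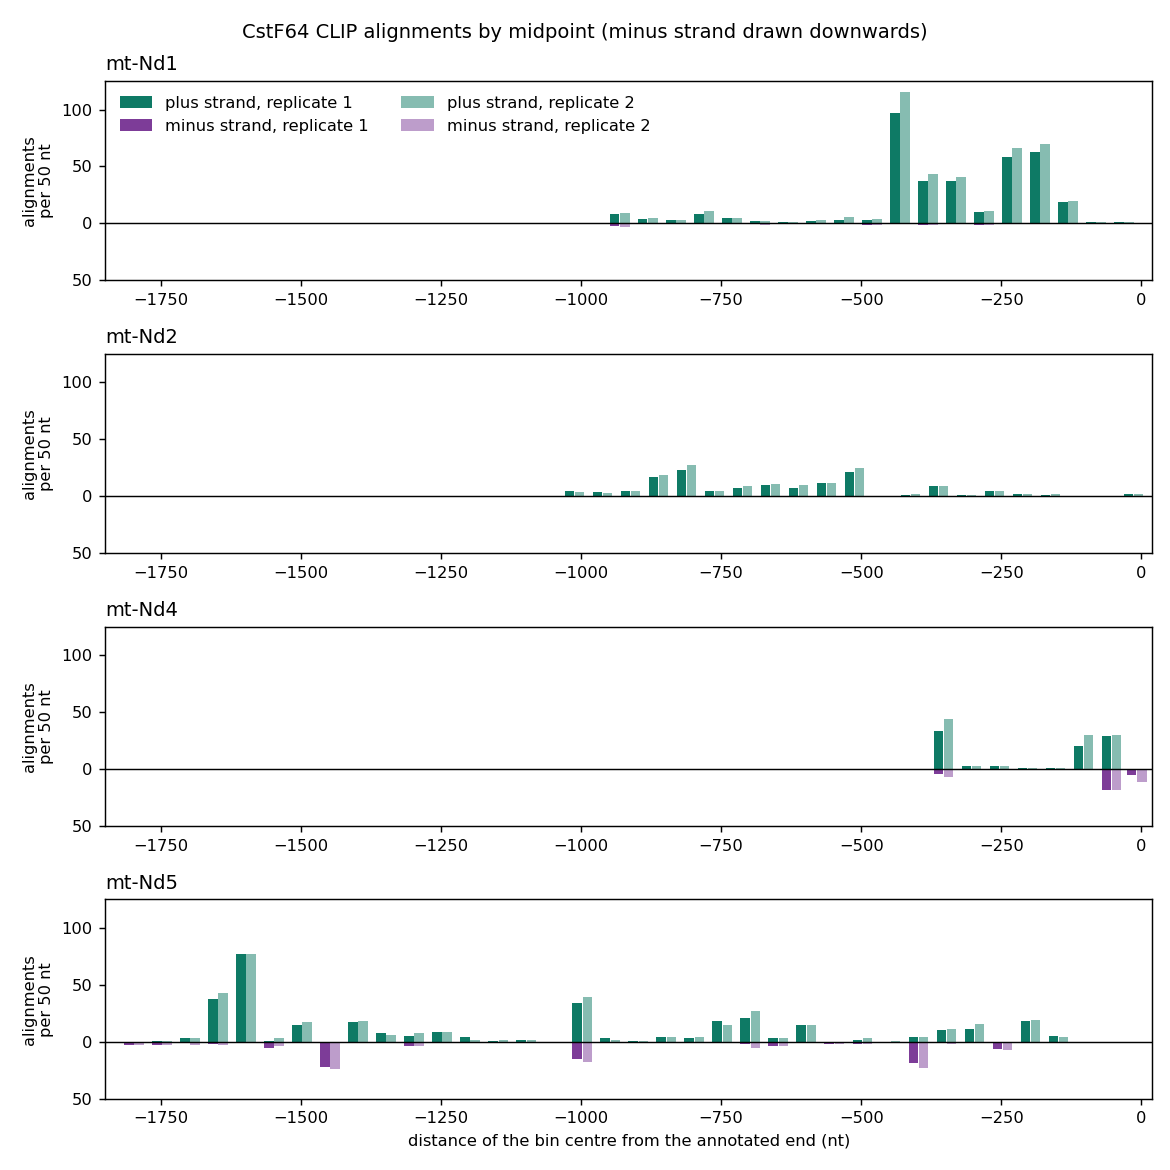
CstF64 CLIP alignments per 50 nt by midpoint, by distance from the annotated end, for replicates 1 (dark) and 2 (light), with the plus strand upwards and the minus strand downwards. The tallest bin is in mt-Nd1 with 97 and 115 alignments, and plus-strand alignments stand in a few groups in each gene.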

How the data were processed

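After a first poly(A) selection, RNA fragments were captured on beads with either oligo, amplified by 12 cycles of PCR and sequenced as 72 nt reads, with no molecular identifiers described, per the labels' protocols. For CLIP, RNA of complexes of 85 to 150 kDa was sequenced. The submitters' processing notes name mm9, Bowtie and Novoalign, without versions or roles; read filters are not given in the sources used here. The deposited read counts, in the fifth column, are not normalized by the authors as far as the labels state. A 3'READS line is 1 position, and a CLIP line 1 distinct alignment.

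The reference was GRCm38 with GENCODE vM21, another build. Mitochondrial annotation and sequence were taken from it, 15365 bases put together from 37 transcripts that did not contradict each other. The absence of A after the mapped ends shows that the letters fit the files' coordinates. No nuclear gene was named, so the labelled cells were not checked against marker genes.

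The genes and lists were chosen with earlier results of these data known. For each gene the end window was 10 nt on either side of the annotated end. Ratios are (reads in CU5T45 / all CU5T45 reads) over the same for oligo(dT)10-25, with exact conditional binomial 95% intervals, and shares have Clopper-Pearson intervals. Quotients of ratios are odds ratios with exact conditional intervals. Clusters chained positions of both libraries at gaps of up to 24 nt and were kept from 3 reads. For overlap, CU5T45 was thinned to the other library's depth. Even placement in the letters of read ends moves each base of a gene to the end of any following A run. CLIP alignments were placed by midpoint and scaled per 1000000 alignments. Named positions are the most used end position and the 3 inside positions of highest mean share, of which examples are given; extreme ratios, their 10 nt surroundings, bins and the end before mt-Cytb were picked once values were known. The ratio's script was first tested on simulated data. Counts of 0 allow up to 3 reads, 0.445 CPM in CU5T45 and 0.861 CPM in oligo(dT)10-25. TMM scaling used edgeR 4.0.16 in R 4.3.3. The rest used scipy 1.17.1, pandas 2.3.3, numpy 2.4.6 and matplotlib 3.10.9 in Python 3.11.15. Alternatives changed the denominator, the end window, the numbering, the counting of reads or positions, depth, the read minimum and the placing and counting of CLIP alignments, and left out each CLIP replicate.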

Additional observations from a re-analysis of the deposited data

Results flagged for a closer look

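The minus strand opposite the 4 genes is not part of their ratios, though its reads count in the mitochondrial total, and the stretch read for mt-Nd6 overlaps the end of mt-Nd5. It held 544 CU5T45 and 407 oligo(dT)10-25 reads, above the 3 reads that a count of 0 allows. The ratio of shares was 0.691 (0.606 to 0.787). Most lay opposite mt-Nd5, with 332 CU5T45 and 211 oligo(dT)10-25 reads, or 6.18% and 6.48% of the reads of both strands there. Opposite mt-Nd1 they were 0.159% and 0.198%.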

How the results depend on the processing

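The alternatives gave 137 values, of which 96 stayed within the counting interval of the main value, 34 moved beyond it and 7 turned direction. For CLIP that interval used the summed alignments of both replicates as if independent, though both count as 1 sample. The 7 are ratios whose own interval had excluded 1. They include the mt-Nd2 end with each position counted once, where the new interval of 0.311 to 3.57 includes 1, and leave out mt-Nd4 inside, which passed 1 with all mitochondrial reads but had included it before. Ends are given in the order mt-Nd1, mt-Nd2, mt-Nd4 and insides in the order mt-Nd1, mt-Nd2, mt-Nd4, mt-Nd5. Divided by all mitochondrial reads, end ratios were 1.18, 1.54 and 1.34, inside ratios 1.48, 1.35, 1.96 and 1.74, and the ratio at the end before mt-Cytb 0.313, the last still below 1. By nuclear reads, the mt-Nd1 end had 0.563 and the mt-Nd4 end 0.639. With TMM, end ratios were 0.539, 0.704 and 0.611, and inside ratios of mt-Nd1, mt-Nd2 and mt-Nd5 were 0.675, 0.616 and 0.794. With the median ratio they were 0.537, 0.701 and 0.609 at ends and 0.673, 0.614 and 0.792 inside. Counting each position once gave 0.851, 1.02 and 0.639 at ends, and 0.773, 0.843 and 0.876 inside mt-Nd1, mt-Nd2 and mt-Nd4. An end window had at most 10 used positions. The share of reads at the end, counted so, was 2.13%, 2.45%, 2.76% and 0.179% with CU5T45 and 1.94%, 2.03%, 3.75% and 0.398% with oligo(dT)10-25 (mt-Nd5 last). For mt-Nd5 with oligo(dT)10-25 it was 0.262% with a window of 20 nt and 0% when only positions of 3 or more reads were counted. Windows of 5 nt, numbering shifted by 1 nt and equal depth moved none of the values they were applied to. CLIP alignments per kb and per 1000000 averaged 329, 114, 211 and 155. Counted by reads, mt-Nd1 had 359 and mt-Nd5 175, and placed by the 5′ end mt-Nd4 had 182. Leaving out either CLIP replicate gave 319 to 340 in mt-Nd1, 108 to 119 in mt-Nd2, 210 to 212 in mt-Nd4 and 145 to 165 in mt-Nd5. The alternatives for the end before mt-Cytb were chosen after seeing the data. No paired analysis was possible because there was 1 library for each oligo, and CLIP has no second group.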

Other observations

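The genomic letters at the mapped ends of inside reads differed between the oligos in some genes. A run of 3 or more A closed at the last genome-matched base in 4.03% of inside CU5T45 reads (3.60 to 4.51) and 7.53% of inside oligo(dT)10-25 reads (6.83 to 8.28) in mt-Nd1, and in 12.8% (11.5 to 14.1) and 17.7% (16.1 to 19.4) in mt-Nd2. Reads placed evenly over each gene would give 6.66% and 10.6%. In mt-Nd4 the shares were 10.2% and 10.4%, against 4.63% under even placement, and in mt-Nd5 7.19% and 7.56%, against 9.65%. For these runs, the intervals of the 2 libraries overlap in both of these genes. Without the most used inside position of each gene, the shares with CU5T45 and with oligo(dT)10-25 were 1.68% and 3.17% in mt-Nd1, 16.2% and 23.0% in mt-Nd2, and 2.49% and 2.66% in mt-Nd4. In mt-Nd5 the last genome-matched base was A in 41.2% of inside CU5T45 reads (39.8 to 42.6) and 46.5% of inside oligo(dT)10-25 reads (44.7 to 48.3). Such shares were 42.5% and 48.4% in mt-Nd1, 63.6% and 71.6% in mt-Nd2, and 60.0% and 62.9% in mt-Nd4. Only in mt-Nd4 do their intervals overlap between the libraries.

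Flanks with 6 or more A among the next 10 bases followed 27.5% of inside CU5T45 reads and 29.4% of inside oligo(dT)10-25 reads in mt-Nd2, against 8.47% under even placement. Position 4424 made up most of this, and without it the shares were 7.81% and 8.47%. In mt-Nd1 such flanks followed 1.04% and 0.991% of the reads, against 2.11% under even placement. In mt-Nd5 they followed 4.57% of inside CU5T45 reads (4.01 to 5.18) and 3.32% of inside oligo(dT)10-25 reads (2.71 to 4.02), against 5.30%. In mt-Nd4 they followed 1 of 1832 CU5T45 reads and 0 of 980 oligo(dT)10-25 reads, where a count of 0 allows up to 3 reads.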
